A study of Mus musculus with 28 samples.

Results

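The interval described here is the 1.5 Mb of mouse chromosome 11 from 112500001 to 114000000 (build mm9, positions counted from 1) that holds Sox9 and Slc39a11. It was chosen by its low coverage with 5-hydroxymethylcytosine (5hmC) peaks in Tet2 knockout cells relative to the other genotypes, so the 5hmC values below are a description and carry no test. Its members are the peaks of all 11 deposited peak lists that overlap the interval, 2631 of 1489550 peaks in the series. Of these, 1119 came from the 6 lists of 5hmC and 1512 from the 5 lists of 5-methylcytosine (5mC).

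The samples were LK cells (the labels' term) of the bone marrow of C57BL/6 mice aged 6 to 10 weeks. Wild-type mice (WT) were set beside mice without Tet2 (Tet2KO) and mice without both Tet1 and Tet2 (DKO), so that both knockout groups lack Tet2. For each mark a genotype had 2 libraries, but the 5mC of Tet2KO was measured in a single library, replicate 2. The 5hmC was captured by chemical labelling (hMe-Seal) and the 5mC by antibody (MeDIP), so a peak shows enrichment and not a share of modified cytosines. Neither the alleles nor the number of animals behind a library are given in the sources used here, so the spread between libraries may be technical. The series' 17 RNA-seq libraries were not analysed here, and therefore neither the cell type nor the loss of Tet1 and Tet2 was checked by expression.

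TET enzymes oxidise 5mC to 5hmC, which marks the bodies and distal regulatory regions of many genes, and TET2 is a major TET enzyme of blood-forming cells. Sox9 encodes an HMG-box transcription factor of cartilage and testis development, and it is known for regulatory elements that lie far from the gene in a wide stretch without protein-coding genes. Slc39a11 encodes ZIP11, a member of the zinc transporter family. The approximate positions that define the interval place Sox9 in the bin at 112600001 to 112650000 and Slc39a11 in the 8 bins from 113100001 to 113500000. In the RefSeq gene table of another build (GRCm38.p6), used for names and order only, 9 genes lie between them, all 9 of them long non-coding RNA genes, among them 2610035D17Rik and 4732490B19Rik. After the start of Slc39a11 that table lists Sstr2, a somatostatin receptor gene, then Cog1, Fam104a, D11Wsu47e, Cpsf4l, Cdc42ep4 and Sdk2. No mm9 annotation was used, so no peak was assigned to an exon, an intron or a promoter.

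Over the whole interval, 5hmC peaks covered 179.198 and 177.09 kb in the WT libraries, 126.852 and 122.034 kb in the Tet2KO libraries, and 173.215 and 163.55 kb in the DKO libraries. Both Tet2KO libraries lay below the other 4. The ratio to the WT mean was 0.699 ± 0.0191 in Tet2KO (SD, n = 2) and 0.945 ± 0.0384 in DKO (SD, n = 2), and the 2 ratios share the WT libraries. Over the whole genome the corresponding ratios were 0.906 and 0.978. Depth is unknown, because the lists carry no read counts.

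The interval was read in 30 bins of 50 kb, each given as the percentage of its length covered by peaks. A bin was called low in Tet2KO only where both Tet2KO libraries lay below all 4 WT and DKO libraries. This held for 13 of the 30 bins, of which 23 had a 5hmC peak in at least 2 libraries, beside 11.9% of the 23487 such bins in the genome. The choice of the interval used this contrast. No bin of the interval had both Tet2KO libraries above the other 4, which held for 4.97% of bins in the genome. Both DKO libraries stood above the other 4 in 3 bins, 2 of them in the stretch described below (9.11% in the genome). In 2 bins, both in that stretch, both Tet2KO libraries lay below and both DKO libraries above both WT libraries (1.78% in the genome).

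**Figure D1:**
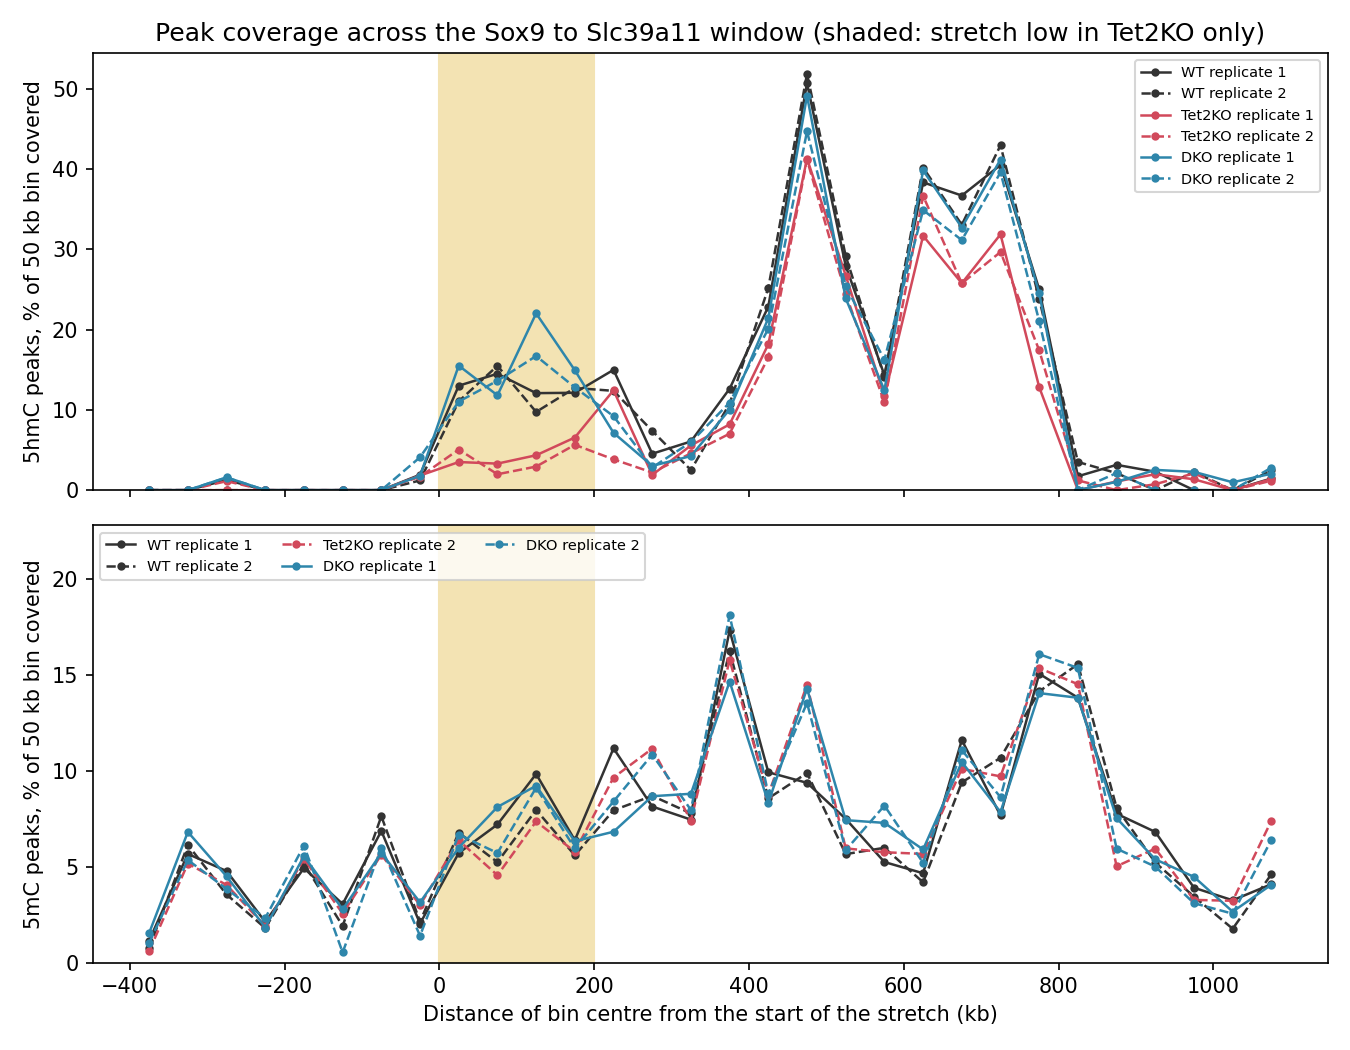
Percentage of each 50 kb bin covered by 5hmC peaks (top) and 5mC peaks (bottom), for each library, against the distance of the bin centre from the start of the stretch low in Tet2KO only (shaded, 200 kb). Inside the shading both Tet2KO lines of 5hmC run below the WT and DKO lines. The single 5mC line of Tet2KO runs close to the others there, but below all of them in 2 of the 4 bins.

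At Sox9 itself there was little 5hmC. The Sox9 bin held 1 peak in WT replicate 1 (112645935 to 112646570), 1 in Tet2KO replicate 2 (112646048 to 112646607), and 1 in each DKO library (112645942 to 112646739 and 112646021 to 112646804). WT replicate 2 and Tet2KO replicate 1 had none, so the presence of a peak did not separate Tet2KO from WT. Both DKO libraries (1.60% and 1.57% of the bin covered) stood above the other 4 (0% to 1.27%), on 1 peak per library. The Sox9 bin is thus 1 of the 3 bins with both DKO libraries highest, the one outside the stretch. From 112650001 to 112850000, no library had a 5hmC peak, while all 5 libraries had 5mC peaks there, from 21 to 28 per library. The 5mC peaks covered 4.18% ± 0.0831 of these 200 kb in WT (SD, n = 2), 3.88% in the Tet2KO library and 3.85% ± 0.162 in DKO (SD, n = 2). This 5hmC-free part separates the Sox9 bin from the peaks described next.

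The stretch low in Tet2KO only ran over 4 adjacent bins, from 112900001 to 113100000, between the Sox9 bin and the bins of Slc39a11. In its 200 kb, 5hmC peaks covered 12.6% ± 0.478 in WT (SD, n = 2), 4.17% ± 0.369 in Tet2KO (SD, n = 2) and 14.8% ± 1.79 in DKO (SD, n = 2). WT libraries had 26 and 29 peaks in it, Tet2KO libraries 11 and 13, and DKO libraries 41 and 37. The ratio to WT was 0.331 ± 0.0293 in Tet2KO and 1.18 ± 0.142 in DKO (SD, n = 2 each). The stretch held 19.1 kb less covered length in Tet2KO than in the mean of the other 4 libraries, and 13.2 kb less was found in the 3 bins from 113550001 to 113700000, where coverage was higher in every library.

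By percentage points between the mean of WT and DKO and that of Tet2KO, the bin at 113000001 to 113050000 came first of the 4 (11.5), just ahead of the bin at 112950001 to 113000000 (11.2). WT libraries had 12.1% and 9.75% of it covered. Tet2KO libraries had 4.35% and 2.94%, and DKO libraries 22.0% and 16.7%. Here DKO stood above WT as well as above Tet2KO, with means of 10.9% in WT and 3.645% in Tet2KO. In the bin at 112950001 to 113000000, WT had 14.5% and 15.5%, Tet2KO 3.31% and 1.98%, and DKO 11.8% and 13.6%. In this bin both DKO libraries lay below both WT libraries, and Tet2KO reached 0.191 of the mean of WT and DKO, the lowest ratio of the stretch. Against WT alone, the gap was wider in this bin than at 113000001 to 113050000, with means of 15.007% in WT and 2.65% in Tet2KO.

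Both outer bins of the stretch showed a smaller gap. At 112900001 to 112950000, WT had 13.0% and 11.1% covered, Tet2KO 3.51% and 5.06%, and DKO 15.5% and 11.04%. At 113050001 to 113100000, WT had 12.1% and 12.7%, Tet2KO 6.56% and 5.65%, and DKO 14.9% and 12.8%. In these bins Tet2KO stood at 0.338 and 0.464 of the mean of WT and DKO.

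The left edge was sharp at this step, but 5hmC coverage itself rose across it in every library. No library had any 5hmC coverage from 112650001 to 112850000, so a low Tet2KO value could not be seen there. In the bin just outside, at 112850001 to 112900000, coverage reached 1.93% and 1.21% for WT libraries, 1.82% and 1.69% for Tet2KO libraries, and 1.79% and 4.10% for DKO libraries, so that the groups overlapped. Its region at 112877262 to 112878421 had a peak in all WT and DKO libraries and in both Tet2KO libraries. The next region with a peak in all WT and DKO libraries, at 112907839 to 112908503, had none in either Tet2KO library. No such region lay in the 29.4 kb between them, so the edge cannot be placed more closely.

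The right edge was less clear. At 113100001 to 113150000, WT had 14.998% and 12.4% covered, Tet2KO 12.4% and 3.84%, and DKO 7.15% and 9.22%. Tet2KO replicate 1 lay in the range of WT and replicate 2 below every other library, so the bin was not called. The last region inside the stretch (113069731 to 113071128) had a peak in all 6 libraries, and so did the next region with a peak in all WT and DKO libraries (113112348 to 113113332). Peaks of some libraries only, Tet2KO replicate 1 among them, lay in the 41.2 kb between them. Past the edge, the region at 113127475 to 113128543 again had a peak in all WT and DKO libraries and in no Tet2KO library. The 10 kb step at 113120001 to 113130000 was low in Tet2KO only, so the pattern did not end at the edge. In steps of 10 kb, 13 of the 20 steps of the stretch were low in Tet2KO only, and 11 had no Tet2KO peak, among them 3 with no peak in any library. In 5 of those 11 steps all 4 WT and DKO libraries had coverage. The shares of such 10 kb steps over the genome are not given here, so these counts only describe the stretch.

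**Figure D2:**
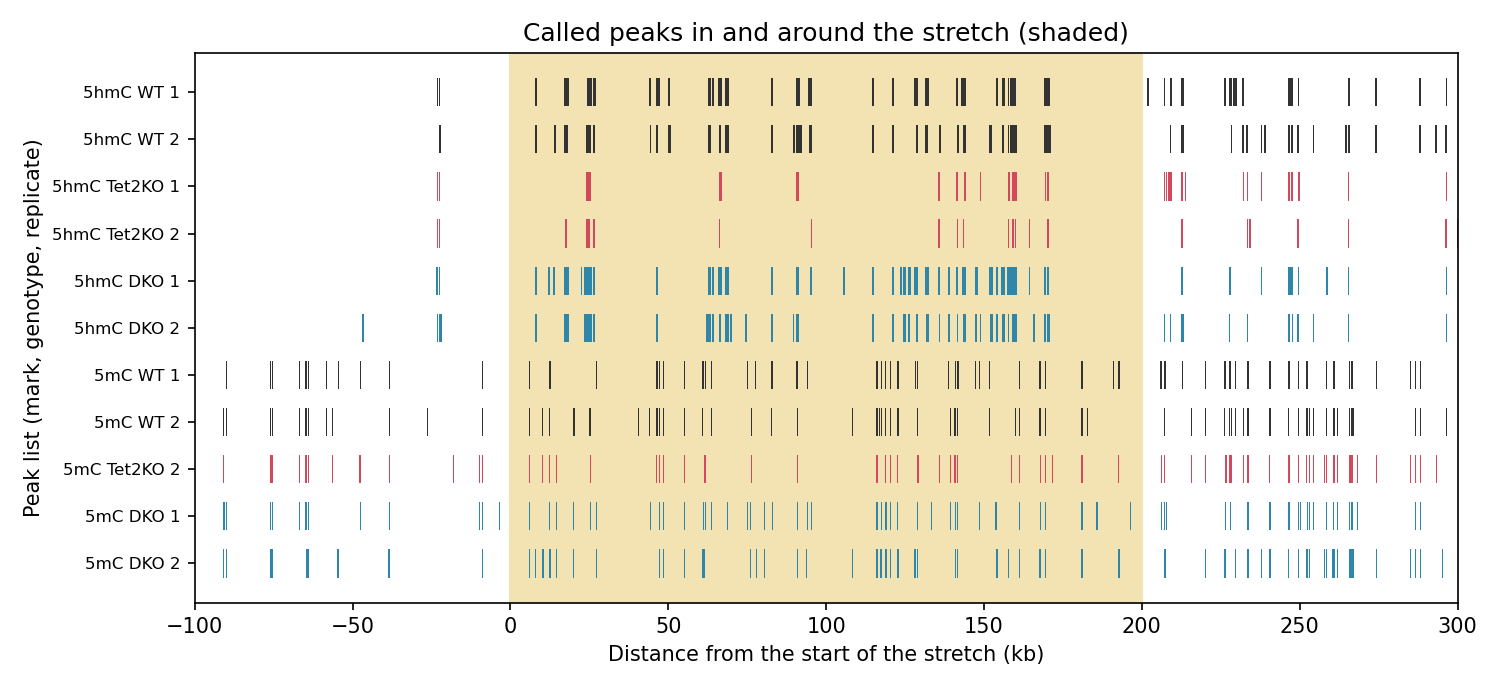
Called peaks of the 11 lists (rows, by mark, genotype and replicate) against the distance in kb from the start of the stretch (shaded, 200 kb), with 100 kb on each side. The Tet2KO rows of 5hmC hold 11 and 13 peaks in the shading, against 26 to 41 in the WT and DKO rows, while the 5mC rows hold 36 to 49.

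Most of the difference lay in which regions had a peak. Merged over the 6 libraries, the 5hmC peaks of the stretch formed 44 regions. No Tet2KO library had a peak in 29 of them (65.9%), against 22.5% of regions in the genome. In 10 of the 44 (22.7%) all WT and DKO libraries had a peak and no Tet2KO library did, a count that fell to 2 when peaks scoring under 100 were dropped. That pattern held for 0.796% of the 206417 regions in the genome and for 2 of the 209 regions in the remainder of the interval (0.957%). Only 7 regions of the stretch (15.9%) had a peak in all 6 libraries, against 29.9% in the genome and 37.8% in the remainder of the interval. None of the 44 regions of the stretch had a peak in Tet2KO libraries alone, which held for 12.2% of regions in the genome and 7.18% in the remainder of the interval.

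The 5 widest of the 10 regions called in all WT and DKO libraries and in no Tet2KO library lay at 112962060 to 112963677 (1618 bp), 113027693 to 113029261 (1569 bp), 112967905 to 112969197 (1293 bp), 113031424 to 113032636 (1213 bp) and 113055555 to 113056766 (1212 bp). These 5 began 62.1 to 155.6 kb from the start of the stretch, and all 10 began 7.84 to 155.6 kb from it. All 10 regions of this kind were 604 to 1618 bp wide. Their peaks in the WT and DKO libraries had the authors' scores of 52.04 to 167.98 (median 91.2 over 40 peaks), where 50 is the lowest score in any list.

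The 3 widest regions with a peak in all 6 libraries were at 113058250 to 113060437 (2188 bp), 112923904 to 112925805 (1902 bp) and 113042711 to 113044397 (1687 bp). The 7 such regions had higher scores, 62 to 469.4 in WT and DKO (median 142 over 28 peaks) and 53.74 to 297.54 in Tet2KO (median 89.5 over 14 peaks). Their peaks were 827 bp wide on average in Tet2KO and 1170 bp in WT and DKO. For regions of this kind the means were 1128 and 1289 bp in the remainder of the interval, and 1049 and 1143 bp over the genome. Both Tet2KO peaks were narrower than all 4 others in 3 of the 7 regions. This also held for 20 of 79 regions of this kind in the remainder of the interval (25.3%) and 14.3% of 61659 in the genome. At 113042711 to 113044397 the Tet2KO peaks measured 495 and 465 bp, the WT peaks 1592 and 1010 bp, and the DKO peaks 1252 and 974 bp.

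DKO libraries had peaks of their own in the stretch. A peak in both DKO libraries and in no WT or Tet2KO library was found in 5 of the 44 regions (11.4%), beside 1.11% of regions in the genome. One, at 112923329 to 112923888, ended just before the region at 112923904 to 112925805, which had a peak in all 6 libraries. It was counted apart only because merging asked for an overlap of at least 1 bp. The other 4 lay between 113024327 and 113047980, in the bin where DKO exceeded WT most. In the remainder of the interval, 3 of 209 regions had a peak in both DKO libraries only (1.44%). The 5 regions of the stretch had DKO scores of 52.86 to 174.79, and none had both DKO scores at 100 or more. Whether WT or Tet2KO had signal just under the caller's threshold in these regions was not tested. Libraries of 1 genotype did not share all regions. Of the regions of the stretch called in either library of a pair, 24 of 30 were shared in WT, 8 of 15 in Tet2KO and 30 of 42 in DKO. These shares were 80%, 53.3% and 71.4%, beside 62.7%, 54.2% and 64.3% over the genome.

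**Figure D3:**
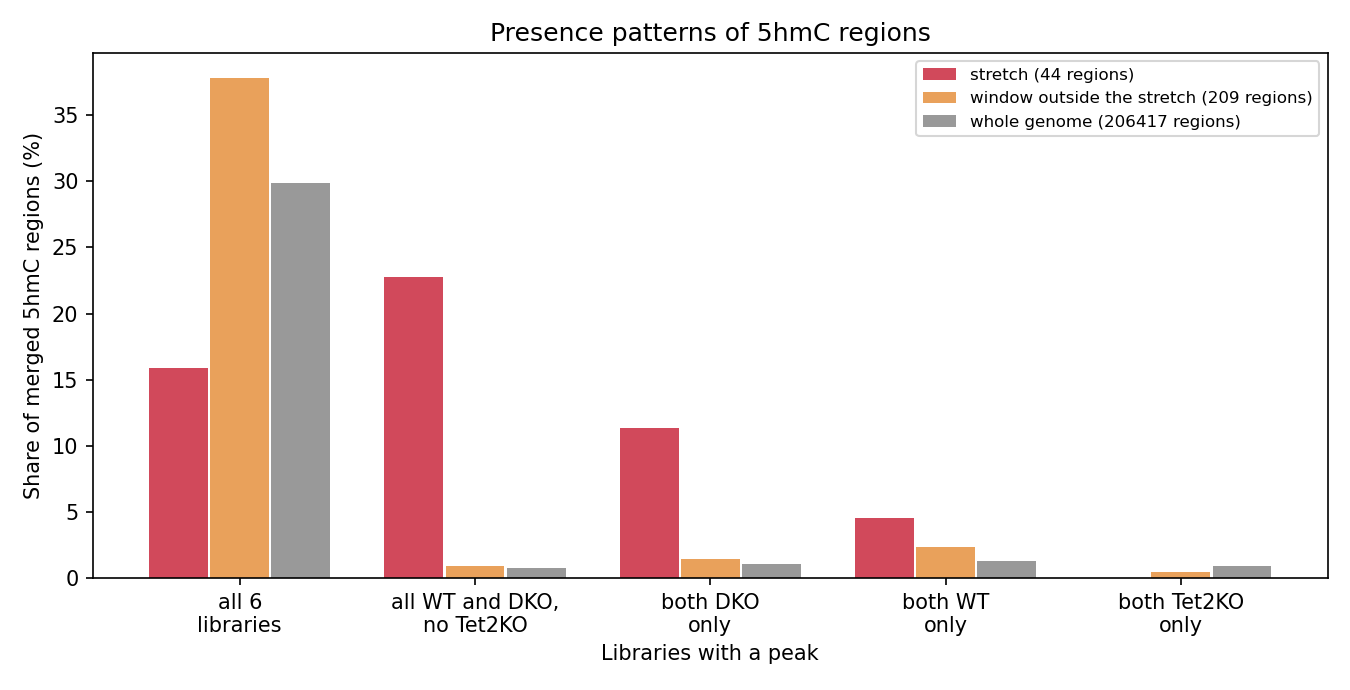
Share of merged 5hmC regions (bars, percent) by the libraries in which they have a peak, in the stretch (44 regions), the remainder of the interval (209) and the whole genome (206417). The pattern with peaks in all WT and DKO libraries and none in Tet2KO stands at 22.7% in the stretch and under 1% in the others.

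Over the bins of Slc39a11, the difference was smaller and coverage higher. There 5hmC peaks covered 19.2% ± 0.0640 in WT (SD, n = 2), 14.8% ± 1.35 in Tet2KO (SD, n = 2) and 16.7% ± 0.358 in DKO (SD, n = 2). The ratio to WT was 0.770 ± 0.0704 in Tet2KO and 0.868 ± 0.0186 in DKO (SD, n = 2 each). Of the 8 bins, 5 were low in Tet2KO only. In the densest bin of the interval, at 113350001 to 113400000, coverage reached 50.7% and 51.9% for WT libraries, 41.3% and 41.2% for Tet2KO libraries, and 49.2% and 44.7% for DKO libraries.

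Past the bins of Slc39a11, 3 adjacent bins from 113550001 to 113700000 were also low in Tet2KO only, with a ratio to WT of 0.709 ± 0.0166 in Tet2KO and 0.942 ± 0.0466 in DKO (SD, n = 2 each). In the bin at 113600001 to 113650000, coverage reached 40.5% and 43.0% for WT libraries, 31.9% and 29.7% for Tet2KO libraries, and 41.2% and 39.6% for DKO libraries. Its gap in percentage points, 10.3, was close to those of the 2 middle bins of the stretch (11.5 and 11.2), but Tet2KO kept 0.749 of the level of the other libraries here. From 113700001 to the end of the interval the highest coverage of any library in a bin was 3.51%. At the end bins, 112500001 to 112550000 had no 5hmC peak in any library, and 113950001 to 114000000 had little. Its WT libraries had 1.46% and 2.48% covered, its Tet2KO libraries 1.38% and 1.18%, and its DKO libraries 2.05% and 2.80%.

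Runs low in Tet2KO only occurred across the genome, 2179 in number, of which 1741 were of a single bin and 47 of at least 4 bins. Among the 47, the ratio of Tet2KO to the mean of WT and DKO was 0.304 in the stretch, the lowest, and 0.587 in the next, on chromosome 3 at 148450001 to 148750000. The median was 0.791 and the highest 0.910. By the difference in covered length the stretch ranked 5th. The 5 runs outside the interval with the largest such difference were on chromosome 7 at 139400001 to 139700000 (21.9 kb, ratio 0.722) and at 20000001 to 20350000 (21.2 kb, ratio 0.779), chromosome 15 at 85700001 to 85950000 (20.9 kb, ratio 0.802), chromosome 10 at 117350001 to 117550000 (19.3 kb, ratio 0.679) and chromosome 4 at 148150001 to 148500000 (17.9 kb, ratio 0.690). These runs had more 5hmC in WT, from 58.2 to 108.9 kb covered against 25.2 kb in the stretch. They spanned 200 to 350 kb, against 200 kb for the stretch, so part of that gap is length. Since the interval was picked for its low values, this order is a description.

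**Figure D4:**
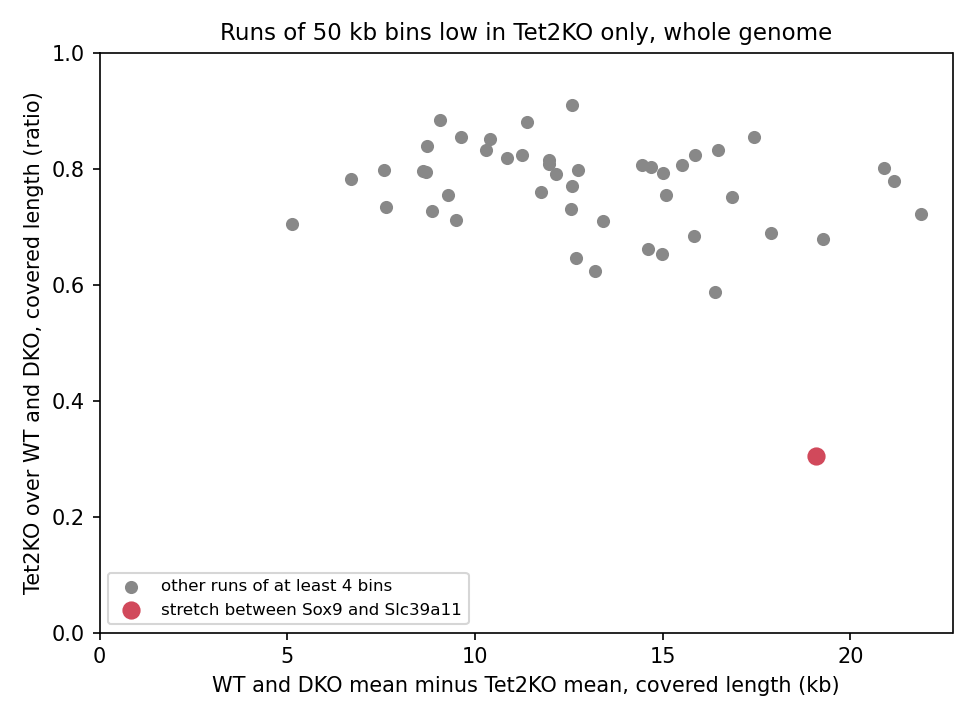
Each point is a run of at least 4 adjacent 50 kb bins low in Tet2KO only (47 runs), by the difference in covered length between the mean of WT and DKO and the mean of Tet2KO (kb, x axis) and by the ratio of Tet2KO to that mean (y axis). The stretch between Sox9 and Slc39a11 stands at 19.1 kb and 0.304, below all other points in ratio.

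The 5mC lists were not used to choose the interval. In the stretch, 5mC peaks covered 14.573 and 12.788 kb in WT, 12.039 kb in the single Tet2KO library, and 14.834 and 13.74 kb in DKO. The Tet2KO library was the lowest, at 0.880 of the WT mean, and had 39 peaks against 41 in each WT library and 49 and 36 in the DKO libraries. Of the 63 merged 5mC regions of the stretch, 38 had a Tet2KO peak (60.3%, and 61.5% in the genome). A peak in all 4 WT and DKO libraries and none in Tet2KO was found for 1 of the 63, beside 1.82% in the genome.

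Between DKO and WT, the covered 5mC length differed by 4.43% of WT in the stretch (exact two-sided permutation p = 0.667) and by 2.91% in the whole interval (exact permutation p = 0.667). With 2 against 2 libraries, the smallest p is 0.333. For the bins of Slc39a11 the difference was 7.57% (exact permutation p = 0.333), with 9.18% ± 0.474 covered in WT (SD, n = 2), 9.88% ± 0.479 in DKO (SD, n = 2) and 9.87% in the Tet2KO library. Both DKO libraries (9.54% and 10.2%) and the Tet2KO library lay above both WT libraries (9.52% and 8.85%) there, and the closest pair nearly touched.

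A limma fit over all 34496 bins of 50 kb with a 5mC peak in at least 2 libraries called 0 bins (0% of the genome) between DKO and WT at an adjusted p under 0.05 (smallest adjusted p = 0.929). At an unadjusted p under 0.05 there were 1674 bins (4.85%). All 30 bins of the interval were tested, and 2 had an unadjusted p under 0.05, a share near the background. At 113350001 to 113400000, the bin densest in 5hmC, 5mC covered 9.38% and 9.89% in WT, 14.5% in the Tet2KO library, and 14.3% and 13.6% in DKO (limma, adjusted p = 0.929). At 113450001 to 113500000, 5mC covered 5.25% and 5.99% in WT, 5.76% in the Tet2KO library, and 7.29% and 8.19% in DKO (limma, adjusted p = 0.929). In both bins every DKO library was above every WT library, but neither passed the adjusted threshold. The 4 bins of the stretch gave adjusted p from 0.988 to 1 in limma (unadjusted 0.584 to 0.901).

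The single Tet2KO 5mC library lay below all 4 WT and DKO libraries in 7 of the 30 bins and above them in 3, beside 15.6% and 20.6% of bins in the genome. Of the 4 bins of the stretch, 2 were among the 7. In the bin at 112950001 to 113000000, it had 4.56% covered, against 7.20% and 5.24% in WT and 8.12% and 5.72% in DKO. With 1 library there is no test of this difference.

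Of the 44 5hmC regions of the stretch, 9 (20.5%) overlapped a region with a 5mC peak in all 5 libraries. That share was 12.8% over the genome but 28.2% of the 209 regions in the remainder of the interval, above the stretch. Of the 10 regions called in all WT and DKO libraries and in no Tet2KO library, 4 had such an overlap. Among the 7 regions with a peak in all 6 libraries, 1 had it. On 5mC peaks of the Tet2KO library lay 4 of the 10 and 3 of the 7. Over the genome these shares were 29.5% and 31.3%, and in the remainder of the interval the counts were 2 of 2 and 36 of 79. On 5mC of all 5 libraries the shares over the genome were 19.8% of 1644 and 19.9% of 61659 regions, and the remainder had 0 of 2 and 22 of 79. With 10 and 7 regions, these counts are given without a test.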

How the data were processed

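The authors deposited a separate peak list for every library, and replicates were not pooled. A list gives the position of each peak in mm9 and a score. The deposited score looks like the MACS output in which a p-value is put on a log10 scale and multiplied by -10, but no header states this. The tools named, per the submitters' processing notes, are CASAVA 1.4 and Bowtie 0.12.9, also TopHat2 2.0.8 and Cuffdiff 2.2.1, and MACS 1.4.2; their roles are not stated. Whether a control library was used or duplicates were removed, and how deeply libraries were sequenced, is not given in the sources used here. More depth can give more and wider peaks.

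Covered length per bin was computed from the lists (Python 3.11.15, pandas 2.3.3), and peaks of a mark sharing at least 1 bp were merged into regions. For 5mC, the arcsine square root of the covered fraction was fitted with limma 3.58.1 (trend in the prior variance) on all 5 libraries, with Benjamini-Hochberg adjustment over all bins. On simulated 5mC data for DKO against WT (34496 bins, 200 changed), limma recovered 0% of changes of 0.05, 56% of changes of 0.1 and 100% of changes of 0.2 on the arcsine scale. Calls among unchanged bins numbered 0, 2 and 11. The simulated noise had the same spread in every bin, so recovery in the real data may differ. Named by rule were the bins with the 3 largest differences, those beside both edges and at the ends of the interval, the 5 widest regions called in all WT and DKO libraries and in no Tet2KO library, the 3 widest with a peak in all 6 libraries, and the 5 runs elsewhere with the largest difference. The bins at Sox9 and Slc39a11, the 5mC bins with a low unadjusted p, the regions called in DKO alone and the run on chromosome 3 were singled out after their values were seen. The interval and these rules were chosen with earlier results of these data known. The single 5mC library of Tet2KO is number 2 in its title but 1 in the name of its list, and the title was followed. Since separate animals are not stated, a p-value here reflects variation between libraries that may be technical.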

Additional observations from a re-analysis of the deposited data

Results flagged for a closer look

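In 2 bins of the stretch, both Tet2KO libraries lay below both WT libraries for 5hmC and both DKO libraries lay above them. At 113000001 to 113050000, DKO was 8.46 percentage points above WT and Tet2KO -7.28 points from WT. At 113050001 to 113100000, DKO was 1.44 points above WT and Tet2KO -6.33 points from WT. This opposite movement held for 1.78% of 50 kb bins in the genome. The difference between the 2 genotypes was not tested, since these values chose the interval, and both contrasts use the same WT libraries.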

How the results depend on the processing

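All 4 bins of the stretch stayed low in Tet2KO only when peaks scoring under 100 were dropped and when each library gave equally many top peaks. They also did so after division by the covered length of each library. Leaving out 1 library only relaxes the rule, so these bins could not lose the label there. The longest run, which sets the edges, moved in other settings. It ended at 113075000 with bins of 25 kb, and ran from 112875001 to 113075000 with bins shifted by 25 kb. Leaving out 1 library, its start ranged from 112900001 to 113450001 and its end from 113100000 to 113700000. Without Tet2KO replicate 1 it ran on to 113200000, and without Tet2KO replicate 2 or without DKO replicate 2 the longest run was the 5 bins from 113450001 to 113700000. The 13 bins low in Tet2KO only became 7 at a score of at least 100. The Tet2KO to WT ratio of the interval was 0.762 at that score, 0.678 with equal numbers of top peaks and 0.771 after division by covered length, and that of the stretch 0.294 and 0.365 in the last 2 settings. Regions called in all WT and DKO libraries and in no Tet2KO library numbered 12 in the interval and 10 in the stretch, and 2 and 2 at a score of at least 100. In the interval they numbered 14 to 25 without 1 library, with 25 when either Tet2KO library was left out. With a library left out the rules ask for less, so longer runs and higher counts can follow from the rules alone. The cause of the shifts in the other settings was not tested.

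For 5mC, the DKO difference in the interval was 4.54% of WT at a score of at least 100 and 4.55% with equal numbers of top peaks, and 0.0312% to 5.96% without 1 library. That of the stretch ranged from -1.96% (without WT replicate 2) to 11.7% (without WT replicate 1), so its direction rested on 1 library. In limma, 0 bins passed under any of 11 alternatives (smallest adjusted p 0.296 to 0.998), where a group left with 1 library was assumed to vary like the others. With the replicate block, 0 bins passed in limma and 2 bins of the interval had an unadjusted p under 0.05, as without it. Deviations of same-numbered 5mC libraries of WT and DKO had a correlation of -0.0451 over bins. That value gave no sign of pairing by number for 5mC, but it cannot exclude shared handling. For 5hmC, pairing was not examined. Depth limits all values, since a peak absent from a list may lie just under the caller's threshold.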
